A study of Mus musculus with 15 samples.

Results

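The parietal cell acid secretion genes are 10 genes whose products build the acid-secreting machinery of the gastric parietal cell. They were taken by name, without a limit on their values, and are Atp4a, Atp4b, Kcne2, Kcnq1, Kcnj15, Kcnj16, Slc26a7, Slc26a9, Slc4a2 and Cckbr. They are 10 of the 44788 gene symbols in the RNA-Seq tables, and all 10 were among the 16902 symbols that reached an FPKM (a level scaled to the length of the transcript and to the number of mapped fragments of the library) of at least 1 at 1 or more of the 15 timepoints. Whole stomachs of C57BL/6 mice, without any treatment, were sampled on each embryonic day from E12.5 to E18.5 (embryonic, n = 7), at D1, D3 and D5 and at W1 and W2 after birth (early postnatal, n = 5), and at W3, W6 and W8 (late postnatal, n = 3), with 1 RNA-Seq library per timepoint. According to the study's reporting summary, stomachs of several embryos were combined up to E17.5 and single stomachs were taken later, and the mice older than W2 were males, so that age and sex cannot be told apart in a comparison of late with early postnatal stomachs. It does not say whether this holds for the RNA samples as well as for the protein samples. Because a timepoint has 1 library, the timepoints of an age group served as its replicates, and the spread within a group includes change over time.

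The parietal cell secretes hydrochloric acid into the lumen of the gastric glands. The H+/K+-ATPase, made of the catalytic subunit Atp4a and the glycosylated subunit Atp4b, exchanges cytoplasmic protons for luminal potassium, so acid secretion needs K+ channels that return potassium to the lumen and a pathway by which chloride follows. Bicarbonate that is left in the cell leaves across the basolateral membrane in exchange for chloride, and gastrin, histamine and acetylcholine control the rate of secretion.

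Promoter sequences are shown for 3 of the genes, Atp4a, Slc26a9 and Kcnj16. Atp4a had the largest log2(FPKM + 1) fold change from embryonic to early postnatal stomachs (by group means it was 11.96-fold, against 17.3-fold for Kcnj16). The course of Slc26a9 was close to that of the pump, and the RNA of Kcnj16 came later. The course of Kcne2 was closer to that of the pump than the course of Slc26a9, and its window is not shown. The windows are the 250 bases before the gene's start in RefSeq (GRCm38.p6), 5′ to 3′ on the + strand, on which all 3 genes lie. A window was held for 7 of the 10 genes, not for Atp4b, Kcnq1 and Slc26a7. Kcnj16 had 4 windows, and Kcne2 and Slc4a2 had 2 each. For these genes the window nearest the first base of the gene's entry was taken, and matches in the others are not given. The window of Slc4a2 and part of that of Cckbr lie inside the entry of the gene. Capitals mark matches to 4 short motifs that were searched on both strands and chosen after the values were known: AAGGTCA (a half-site of oestrogen-related receptors), GATAA (GATA factors), TATAAA (the TATA box) and TGTTTAC (forkhead factors).
Atp4a, chr7:30711959-30712208: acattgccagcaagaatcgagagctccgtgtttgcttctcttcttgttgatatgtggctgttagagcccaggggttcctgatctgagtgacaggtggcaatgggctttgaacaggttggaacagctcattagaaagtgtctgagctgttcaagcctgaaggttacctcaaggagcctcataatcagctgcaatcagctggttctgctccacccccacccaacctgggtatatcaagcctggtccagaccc
Slc26a9, chr1:131743772-131744021: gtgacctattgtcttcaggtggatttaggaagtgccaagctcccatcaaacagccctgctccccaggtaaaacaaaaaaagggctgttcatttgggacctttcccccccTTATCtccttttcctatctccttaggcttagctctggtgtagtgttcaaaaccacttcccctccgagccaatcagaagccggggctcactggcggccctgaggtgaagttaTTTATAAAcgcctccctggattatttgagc
Kcnj16, chr11:110967783-110968032: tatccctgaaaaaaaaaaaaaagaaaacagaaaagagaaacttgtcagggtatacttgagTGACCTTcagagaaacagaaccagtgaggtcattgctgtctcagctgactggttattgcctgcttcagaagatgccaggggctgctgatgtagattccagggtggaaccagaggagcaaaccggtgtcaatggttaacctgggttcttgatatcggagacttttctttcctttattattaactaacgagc
The Atp4a window held none of these letters. In the Slc26a9 window, GATAA lay on the reverse strand 141 to 137 bases before the start, and TATAAA lay on the forward strand 28 to 23 bases before it, overlapping a match on the reverse strand at 30 to 25 bases. In the Kcnj16 window, AAGGTCA lay on the reverse strand 190 to 184 bases before the start. Among 32851 mouse windows of this length, 4.08% held AAGGTCA, 22.6% GATAA, 12.4% TATAAA and 3.17% TGTTTAC. Of the other windows, TGTTTAC was found in that of Cckbr, and none of the 4 motifs in those of Kcne2, Kcnj15 and Slc4a2.

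In the 15 libraries, 12387 to 14686 symbols had an FPKM of at least 1. The read depth is unknown, and relative depth estimated from the confidence bounds lay between 0.702 and 1.17 of that at E12.5. The 10 highest symbols of a library took 11.2% of all FPKM at E14.5 and 53.2% at W6, and FPKM is relative to all RNA of a library. Markers of several parts of the stomach were found, including chief, surface mucous, mucous neck, endocrine and smooth muscle cells, and the summed FPKM of 4 kidney tubule markers did not exceed 0.484. The libraries W8 and D1 stood apart in markers of the forestomach and of the liver. At W8 the 4 markers of the forestomach (the squamous, acid-free region of the rodent stomach) summed to 7.65 FPKM, 44.7-fold below W6, with Krt5 at 1.26 FPKM and Trp63 at 0.0511 FPKM. At D1 the 4 liver markers summed to 734.8 FPKM, 10.2-fold above the next highest library, with Alb at 460.5 FPKM. At D3 the 4 pancreatic acinar markers summed to 110.6 FPKM, against 46.7 FPKM at E15.5 and at most 15.8 FPKM elsewhere. D3 was not left out together with W8 and D1, and the part of this in the D3 values was not tested. Counts of the 10 genes that passed the tests are given with and without D1 and W8, and so are the late postnatal counts over all symbols. The other counts, among them those of the other gene lists, are not given without this pair. Percentages of the W8 level and the first timepoints derived from them are given with W8 only. Without D1 and W8, Atp4a, Atp4b, Kcne2, Kcnq1, Slc26a9 and Cckbr had log2 fold changes from embryonic to early postnatal stomachs of 5.04, 4.51, 2.97, 2.46, 2.52 and 0.83 (adjusted p from 0.00172 to 0.00542 in limma). From early to late postnatal stomachs these 6 genes had log2 fold changes of 1.58, 1.82, 1.22, 0.59, 0.73 and 0.31 without the pair (adjusted p from 0.292 to 0.494 in limma), and none passed.

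All 10 genes had their highest FPKM at W8. From W6 to W8 the FPKM was 1.18-fold (Atp4b) to 1.83-fold (Slc26a9) higher. Median-ratio scaling, described below, divides the library by 0.570 at W6 and by 0.678 at W8, which makes these folds smaller. With that scaling Atp4b was slightly higher at W6 than at W8. At this step 22.3% of all 16902 tested symbols were at least 1.5-fold higher, and 6 of the 10 genes were. The W8 library was also the one with the lowest forestomach markers, and the part of this in the W8 values was not tested. At W8 the order of the levels in FPKM was Atp4b, Atp4a, Slc4a2, Slc26a9, Kcne2, Kcnj15, Kcnj16, Kcnq1, Cckbr and Slc26a7. The confidence bounds of Atp4b and Atp4a overlapped, as did those of Kcne2 and Kcnj15, and the other neighbours in this order had bounds apart. Kcnj15 has this place as the sum of its entries, and its chromosome 16 entry alone, at 41.4 FPKM, lay below Kcnj16 and Kcnq1. At E12.5 the order was another one, with Slc4a2 highest at 26.5 FPKM and Kcnj16 lowest at 0.113 FPKM.

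**Figure D1:**
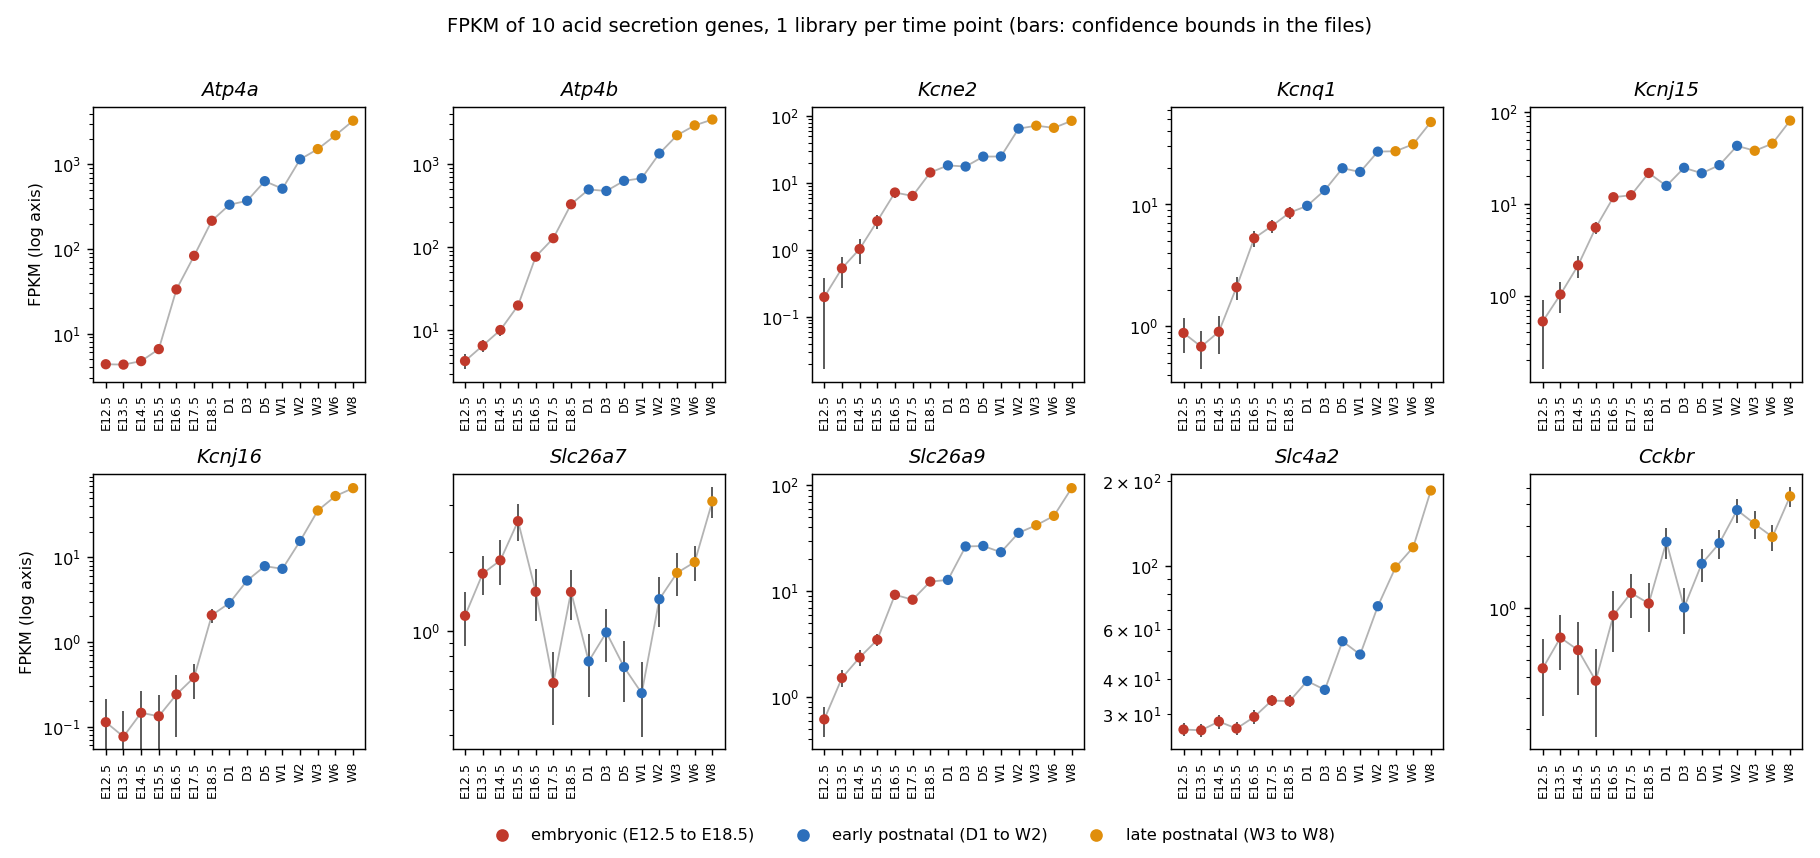
FPKM of the 10 genes (y axes, log scale, each gene on its own range) at the 15 timepoints (x axes, 1 library each), with the confidence bounds of the files as bars and the age groups in colour. Atp4a climbs from 4.29 FPKM at E13.5 to 3289 FPKM at W8, Slc26a7 stays between 0.577 and 3.11 FPKM, and Slc4a2 starts from 26.5 FPKM.

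Across the 3 age groups, 9 of the 10 genes differed (limma's moderated F test on log2(FPKM + 1), Benjamini-Hochberg adjusted over all 16902 tested symbols, threshold 0.01), where 67.9% of all tested symbols did. The exception was Slc26a7, with an adjusted p of 0.0151 in limma. Between early postnatal and embryonic stomachs the same 9 genes were higher, where 10.8% of all tested symbols were higher and 30.6% lower. The median log2 fold change over the 10 genes was 2.29, and over all tested symbols it was -0.22. Between late and early postnatal stomachs, 2 of the 10 genes, Kcnj16 and Slc4a2, were higher, where 2.57% of all tested symbols were higher and 28.9% lower. The median was 1.33 over the 10 genes and -0.42 over all tested symbols. With median-ratio scaling, which divides each library by its median ratio to a common reference, these medians over all symbols became 0.01 and -0.003, the numbers of higher and lower symbols became 2888 and 2515 in the first comparison and to 2152 and 1305 in the second, and 9 and 3 of the 10 genes were higher. With the libraries D1 and W8 left out, 9 of the 10 genes differed across the groups, and 8 (without Kcnj15) and 2 were higher in the 2 comparisons. Adding 1 before the logarithm makes the fold change of genes of low FPKM smaller than it is.

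Without regard to any test, every early postnatal value lay above every embryonic value for 7 of the 10 genes and for 6.63% of all tested symbols, the other 3 genes being Kcnj15, Slc26a7 and Cckbr. Every late postnatal value lay above every early postnatal value for 8 of the 10 genes and for 4.90% of all tested symbols, all but Kcnj15 and Cckbr. Exact two-sided permutation tests of single genes cannot go below p = 0.00253 for 5 against 7 timepoints (792 splits) and p = 0.0357 for 3 against 5 timepoints (56 splits). The splits treat timepoints as interchangeable, whereas each group is a run of neighbouring ages. A gene or ratio that changes steadily with age therefore reaches these smallest values without any break between the groups. In bulk tissue, a lower level can come from fewer parietal cells or from less RNA in each, and these cannot be told apart.

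**Figure D2:**
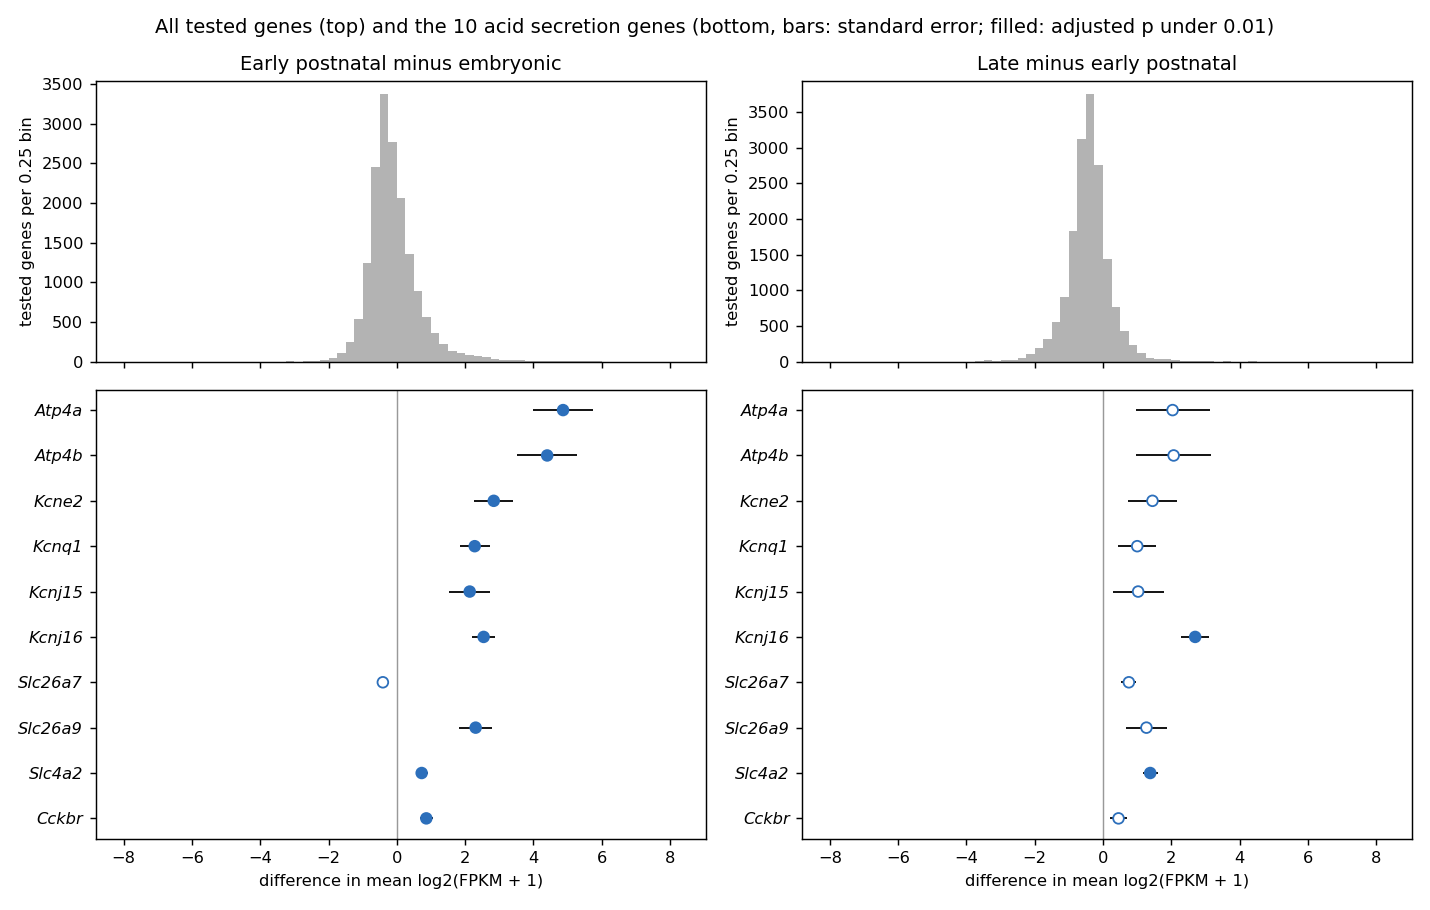
Difference in mean log2(FPKM + 1) between early postnatal and embryonic stomachs (left) and between late and early postnatal stomachs (right), for all tested symbols as a histogram (top) and for the 10 genes with the standard error as bars (bottom). Filled points had an adjusted p under 0.01 in limma, which holds for 9 genes on the left and for Kcnj16 and Slc4a2 on the right.

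The 2 subunits of the proton pump had the largest fold changes of the 10 genes from embryonic to early postnatal stomachs on the log2(FPKM + 1) scale. By group means Kcnj16 had a larger one, 17.3-fold, against 11.96-fold for Atp4a and 8.785-fold for Atp4b. Atp4a (chromosome 7, 30712213 to 30725534, GRCm38) encodes the catalytic subunit, which binds ATP and carries the ions. Its level was 4.34, 4.29, 4.72, 6.55, 33.3, 83.0 and 215.7 FPKM from E12.5 to E18.5. After birth it was 333.8 FPKM at D1, 371.5 at D3, 634.0 at D5, 516.3 at W1 and 1149 at W2. It then reached 1519 FPKM at W3, 2213 at W6 and 3289 at W8. The first 4 embryonic values lay close together, the next 3 each stood well above the one before, and no value of an age group reached into the next group. The log2 fold change from embryonic to early postnatal stomachs was 4.87 (SE 0.87, adjusted p = 0.000552 in limma, exact permutation p = 0.00253), from a mean of 50.3 ± 78.4 FPKM (SD, n = 7) to 601.0 ± 328.9 FPKM (SD, n = 5). The late postnatal mean was 2340 ± 892 FPKM (SD, n = 3), a further log2 fold change of 2.04 (SE 1.08) that did not pass the threshold (adjusted p = 0.124 in limma). With the protein-based phases of the study (E12.5 to E16.5, E17.5 to W2, W3 to W8) as groups, this second difference was 2.61 and passed it (adjusted p = 0.0046 in limma). These groups place E17.5 and E18.5 with the early postnatal timepoints. With the RNA-based phases of the study, which place only E18.5 there, the second difference did not pass.

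Atp4b (chromosome 8, 13386209 to 13396778) encodes the glycosylated subunit, which the catalytic subunit needs to leave the endoplasmic reticulum. Its level was 4.28, 6.54, 10.1, 19.9, 76.6, 127.8 and 326.7 FPKM from E12.5 to E18.5. It was 491.5, 471.9, 624.4, 671.5 and 1330 FPKM from D1 to W2, and 2203, 2894 and 3404 FPKM from W3 to W8. The 3 age groups did not overlap, and unlike that of Atp4a its level was higher on each embryonic day than on the day before. From embryonic to early postnatal stomachs the log2 fold change was 4.40 (SE 0.87, adjusted p = 0.00102 in limma), and that from early to late postnatal stomachs was 2.07 (SE 1.09, adjusted p = 0.122). With the protein-based phases the second was 2.55 (adjusted p = 0.00681 in limma), and with the RNA-based phases it did not pass.

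The FPKM of Atp4a was 1.01 times that of Atp4b at E12.5, fell short of it increasingly to a ratio of 0.33 at E15.5, and was 0.66 times it at E18.5. Over the early postnatal timepoints the ratio lay between 0.679 and 1.01, and over the late ones between 0.69 and 0.966. The mean ratio was 0.602 ± 0.223 (SD, n = 7) in embryonic, 0.823 ± 0.126 (SD, n = 5) in early postnatal and 0.807 ± 0.143 (SD, n = 3) in late postnatal stomachs. The difference between the first pair of groups had an exact permutation p of 0.0556 on the log2 ratio (0.0889 adjusted over the 8 ratio tests made), and that between the last pair an exact p of 0.821. The bounds of the ratio at E15.5 (0.268 to 0.405) lay apart from those at E12.5 (0.737 to 1.43) and at E18.5 (0.616 to 0.706).

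At E12.5 the 2 subunits stood at 0.132% and 0.126% of their W8 level. Of the 114 symbols with a mean of at least 1000 FPKM from W3 to W8, 17 had less than 0.2% of their maximum at E12.5, the lowest share being 0.0705%. Pgc, Gkn1, Tff1 and Tff2, secreted products of other gastric cells, had shares of 0.0904%, 0.113%, 0.136% and 0.131%. Actg2, a smooth muscle actin, had a share of 7.89% at this age. Whether the E12.5 values of Atp4a and Atp4b come from the E12.5 stomachs was not tested.

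Of the 4 K+ channel genes, Kcnj16 reached 10% of its maximum at D5, later than Kcnq1, Kcne2 and Kcnj15. The order among Kcnq1, Kcne2 and Kcnj15 depended on the limit and the scaling, and with median-ratio scaling each of them reached 10% at E18.5. Kcnq1 (chromosome 7, 143106840 to 143427044) encodes the pore of the channel through which potassium returns to the lumen of the gland. Its level was 0.879, 0.678, 0.9, 2.09, 5.28, 6.65 and 8.56 FPKM from E12.5 to E18.5. It was 9.75, 13.1, 19.9, 18.51 and 27.2 FPKM from D1 to W2, and 27.4, 31.3 and 47.6 FPKM from W3 to W8. No embryonic value reached the early postnatal ones, but W3 stood only just above W2. The log2 fold change was 2.28 (SE 0.44, adjusted p = 0.000925 in limma) from embryonic to early postnatal stomachs and 1.0 (SE 0.55, adjusted p = 0.14) from there to late postnatal stomachs. Its entry overlaps that of the antisense gene Kcnq1ot1, and as the strand of the counting is not given in the sources used here, reads of the genes could not be told apart.

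Kcne2 (chromosome 16, 92292389 to 92298137) encodes the small subunit that keeps this channel open in acid. Its level was 0.199, 0.534, 1.04, 2.71, 7.26, 6.46 and 14.47 FPKM from E12.5 to E18.5. It was 18.47, 17.8, 25.01, 25.1 and 65.6 FPKM from D1 to W2, and 72.5, 67.4 and 85.7 FPKM from W3 to W8. The W2 value stood with the late postnatal values and not with the other early postnatal ones. Its log2 fold change was 2.84 (SE 0.57, adjusted p = 0.00113 in limma) from embryonic to early postnatal stomachs and 1.45 (SE 0.72, adjusted p = 0.101) from early to late postnatal stomachs. The ratio of Kcne2 to Kcnq1 had means of 1.07 ± 0.472 (SD, n = 7), 1.66 ± 0.492 (SD, n = 5) and 2.20 ± 0.424 (SD, n = 3) in the 3 groups, and neither difference passed an exact permutation test (p = 0.0556 and p = 0.179).

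Kcnj15 (chromosome 16, 95257558 to 95300260) encodes the inward rectifier Kir4.2. Its level was 0.523, 1.03, 2.14, 5.5, 11.8, 12.4 and 21.7 FPKM from E12.5 to E18.5, 15.7, 24.7, 21.5, 26.4 and 42.8 FPKM from D1 to W2, and 37.8, 45.3 and 80.6 FPKM from W3 to W8. The groups overlapped, since D1 and D5 lay below E18.5 and W3 below W2. The log2 fold change from embryonic to early postnatal stomachs was 2.14 (SE 0.60, adjusted p = 0.00763 in limma), and this call was lost without D1 and W8 (2.29, adjusted p = 0.0121) and under 11 other alternatives. Without any 1 of the first 4 embryonic timepoints or of D3, D5, W1, W2 or W6 it lay between 1.81 and 2.18 in those fits and did not pass. The further log2 fold change to late postnatal stomachs was 1.03 (SE 0.75, adjusted p = 0.255). The symbol has a second entry on an alternate scaffold with 0.875 to 1.06 times the FPKM of the chromosome 16 entry, and the level given here is the sum, so reads could have been split between the copies or counted at each.

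Kcnj16 (chromosome 11, 110968033 to 111027968) encodes Kir5.1, an inward rectifier subunit that forms channels together with other members of its family, Kir4.2 among them. Its level was 0.113, 0.0759, 0.145, 0.132, 0.24, 0.382 and 2.07 FPKM from E12.5 to E18.5. It was 2.89, 5.32, 7.87, 7.32 and 15.6 FPKM from D1 to W2, and 35.8, 53.1 and 65.9 FPKM from W3 to W8. The first 6 embryonic values were all under 1 FPKM with wide bounds (0 to 0.155 FPKM at E13.5), E18.5 stood apart from them, and the 3 age groups did not overlap. Early postnatal stomachs differed from embryonic ones by a log2 fold change of 2.54 (SE 0.33, adjusted p = 0.000119 in limma, exact permutation p = 0.00253). It was 2.70 (SE 0.41, adjusted p = 0.000376 in limma, exact permutation p = 0.0357) from early to late postnatal stomachs, which was the largest of the 10 genes. Without D1 and W8 the second was 2.25 (adjusted p = 0.0046). On the linear scale the group means differed 17.3-fold and 6.61-fold.

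The ratio of Kcnj16 to Kcnj15 differed between the ages. It was at most 0.0956 from E13.5 to E18.5 and 0.215 at E12.5, where the bounds (0.0163 to 1.34) were wide. It lay between 0.184 and 0.366 from D1 to W2, and at 0.947, 1.17 and 0.817 at W3, W6 and W8. The log2 ratio was higher by 2.30 in early postnatal than in embryonic stomachs (exact permutation p = 0.00505, 0.0202 adjusted over 8 ratio tests) and by a further 1.83 in late postnatal stomachs (exact permutation p = 0.0357, which is the smallest that 3 against 5 timepoints allow, 0.0889 adjusted). These ratios use the sum of the Kcnj15 entries. The chromosome 16 entry alone had 19.5, 23.2 and 41.4 FPKM at W3, W6 and W8, each below the level of Kcnj16.

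**Figure D3:**
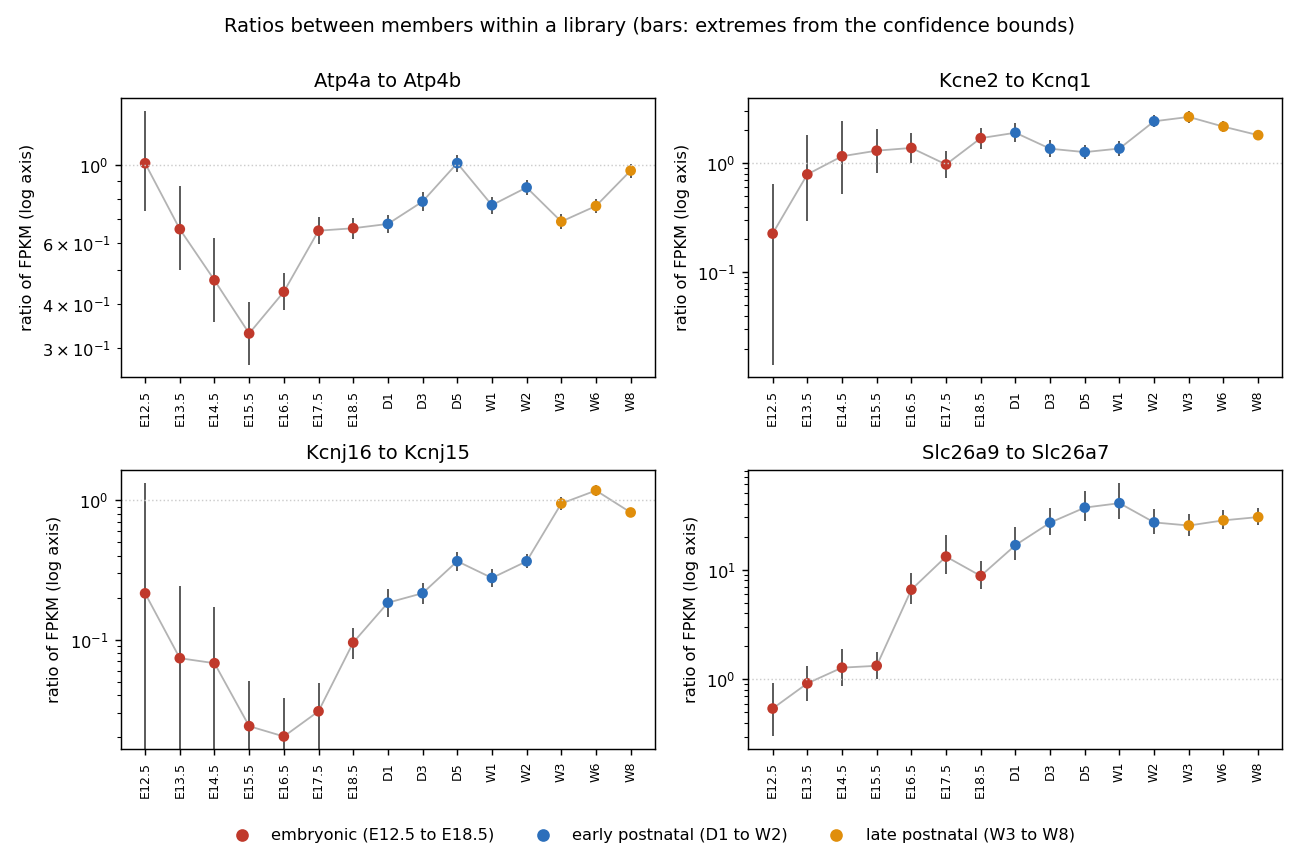
Ratio of FPKM between pairs of genes within a library (y axes, log scale) at the 15 timepoints (x axes), with the extremes that the confidence bounds allow as bars. Kcnj16 to Kcnj15 moves from 0.0203 at E16.5 to 1.17 at W6, Slc26a9 to Slc26a7 from 0.541 at E12.5 to 40.4 at W1, and Atp4a to Atp4b is lowest at E15.5 (0.33).

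Among the chloride and bicarbonate transporters, Slc26a9 (chromosome 1, 131744022 to 131771504), a chloride channel and transporter of the apical membrane, had 0.616, 1.51, 2.36, 3.47, 9.24, 8.3 and 12.3 FPKM from E12.5 to E18.5. It had 12.8, 26.4, 26.7, 23.3 and 35.5 FPKM from D1 to W2, and 41.9, 51.4 and 93.9 FPKM from W3 to W8. D1 was barely above E18.5, and D3 was 2.07-fold above D1. Its log2 fold change was 2.31 (SE 0.48, adjusted p = 0.00133 in limma) from embryonic to early postnatal stomachs and 1.27 (SE 0.60, adjusted p = 0.0868) from early to late postnatal stomachs.

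Slc26a7 (chromosome 4, 14502430 to 14621990), an anion exchanger of the basolateral membrane, followed another course. Its level was 1.14, 1.65, 1.85, 2.61, 1.41, 0.631 and 1.4 FPKM from E12.5 to E18.5. It was 0.763, 0.984, 0.725, 0.577 and 1.32 FPKM from D1 to W2, and 1.66, 1.82 and 3.11 FPKM from W3 to W8. It was thus higher at E15.5 than at every later timepoint but W8, its lowest value was at W1, and embryonic and early postnatal values overlapped. The log2 fold change was -0.41 (SE 0.18, adjusted p = 0.0578 in limma) from embryonic to early postnatal stomachs. It was 0.76 (SE 0.22, adjusted p = 0.0111 in limma) from early to late postnatal stomachs, just short of the threshold, with all 3 late values above all 5 early ones. It passed the threshold with median-ratio scaling (1.18, adjusted p = 0.00102), with quantile normalization (1.38, adjusted p = 0.000818), with the protein-based phases (0.73, adjusted p = 0.00343), and without E15.5, E17.5 or W2. Without D1 and W8 it was 0.54 (adjusted p = 0.102).

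The ratio of Slc26a9 to Slc26a7 was 0.541 at E12.5, 1.33 at E15.5, 6.58 at E16.5 and 13.2 at E17.5, and from D3 to W8 it lay between 25.3 and 40.4. The group means were 4.65 ± 4.94 (SD, n = 7), 29.6 ± 9.34 (SD, n = 5) and 27.9 ± 2.47 (SD, n = 3). The log2 ratio was higher by 3.49 in early postnatal than in embryonic stomachs (exact permutation p = 0.00253, 0.0202 adjusted over 8 ratio tests), and differed by -0.02 between late and early postnatal stomachs (exact permutation p = 0.964).

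Slc4a2 (chromosome 5, 24423761 to 24440947), the anion exchanger AE2 that brings chloride into the cell and bicarbonate out across the basolateral membrane, is used by many cell types. It had 26.5, 26.4, 28.3, 26.7, 29.4, 33.6 and 33.4 FPKM from E12.5 to E18.5, more than either pump subunit up to E15.5. It had 39.3, 36.6, 54.3, 48.8 and 72.2 FPKM from D1 to W2, and 99.0, 116.6 and 184.9 FPKM from W3 to W8. The embryonic values lay within a narrow range and the 3 age groups did not overlap. Its log2 fold change was 0.73 (SE 0.17, adjusted p = 0.003 in limma) from embryonic to early postnatal stomachs, and 1.38 (SE 0.22, adjusted p = 0.000442 in limma, exact permutation p = 0.0357) from early to late postnatal stomachs. Without D1 and W8 these were 0.80 (adjusted p = 0.00157) and 1.05 (adjusted p = 0.00565).

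Cckbr (chromosome 7, 105425557 to 105436339), the receptor for gastrin on parietal and enterochromaffin-like cells, had little RNA throughout. Its level was 0.448, 0.675, 0.571, 0.379, 0.909, 1.23 and 1.06 FPKM from E12.5 to E18.5, 2.43, 1.01, 1.81, 2.38 and 3.71 FPKM from D1 to W2, and 3.08, 2.59 and 4.46 FPKM from W3 to W8. D3 lay within the embryonic range and W2 above W3 and W6. Its log2 fold change was 0.86 (SE 0.19, adjusted p = 0.00191 in limma) from embryonic to early postnatal stomachs and 0.45 (SE 0.24, adjusted p = 0.121) from early to late postnatal stomachs.

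The course of the 10 genes was not even over time. Between E15.5 and E16.5, 8 of them were at least 1.5-fold higher, where 11.8% of all tested symbols were. The highest fold was 5.08 (Atp4a), the median was 2.46, and the exceptions were Slc4a2 and Slc26a7, the latter being at 0.538 times its E15.5 level. For 6 of the 10 genes the lower confidence bound at E16.5 lay above the upper bound at E15.5, and the bounds of Kcnj16 and Cckbr, counted among the 8, overlapped. Between W1 and W2, 8 genes were again at least 1.5-fold higher, where 10.6% of all tested symbols were, and Kcnq1 and Slc4a2 were 1.47-fold and 1.48-fold higher. At this step the bounds of all 10 genes were apart, and the highest fold was 2.61 (Kcne2). Between D5 and W1 none of the 10 genes reached 1.5-fold, where 4.87% of all tested symbols did, and Atp4a was at 0.814 times its D5 level. None did so between W3 and W6 either, where 3.61% of all tested symbols did. Of the other embryonic steps, that from E17.5 to E18.5 had 6 genes at least 1.5-fold higher beside 9.44% of all tested symbols, with Kcnj16 highest at 5.43-fold. The first 3 steps from E12.5 had 5, 5 and 4 genes beside 9.67%, 7.11% and 9.10%, and E16.5 to E17.5 had 3 beside 7.86%. Around birth the counts were 3 genes each from E18.5 to D1, D1 to D3 and D3 to D5, beside 11.8%, 9.84% and 8.92%. From W2 to W3 there were 2 genes, Atp4b and Kcnj16, beside 5.90%. Each step compares 2 libraries with no replicate, so it describes these libraries.

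Relative to their W8 level, the genes differed in when they first reached 10%. Slc26a7, Slc4a2 and Cckbr were at or above it at E12.5 (Cckbr with 8.51% again below it at E15.5), Kcnq1 and Kcnj15 from E16.5, Kcne2 and Slc26a9 from E18.5, Atp4a and Atp4b from D1 and Kcnj16 from D5. At E18.5 the pump subunits stood at 6.56% and 9.6% of their W8 level, and Kcne2, Kcnq1 and Kcnj15 at 16.9%, 18.0% and 26.9%. These first timepoints depend on the limit and the scaling, and 6 of the 10 moved with a limit of 5%, 10 with a limit of 50% and 8 with median-ratio scaling. With median-ratio scaling, which left Kcne2 at E18.5 and Slc26a7 at E12.5, those of the other 8 genes were later, at E16.5 (Cckbr) to W2 (Kcnj16).

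**Figure D4:**
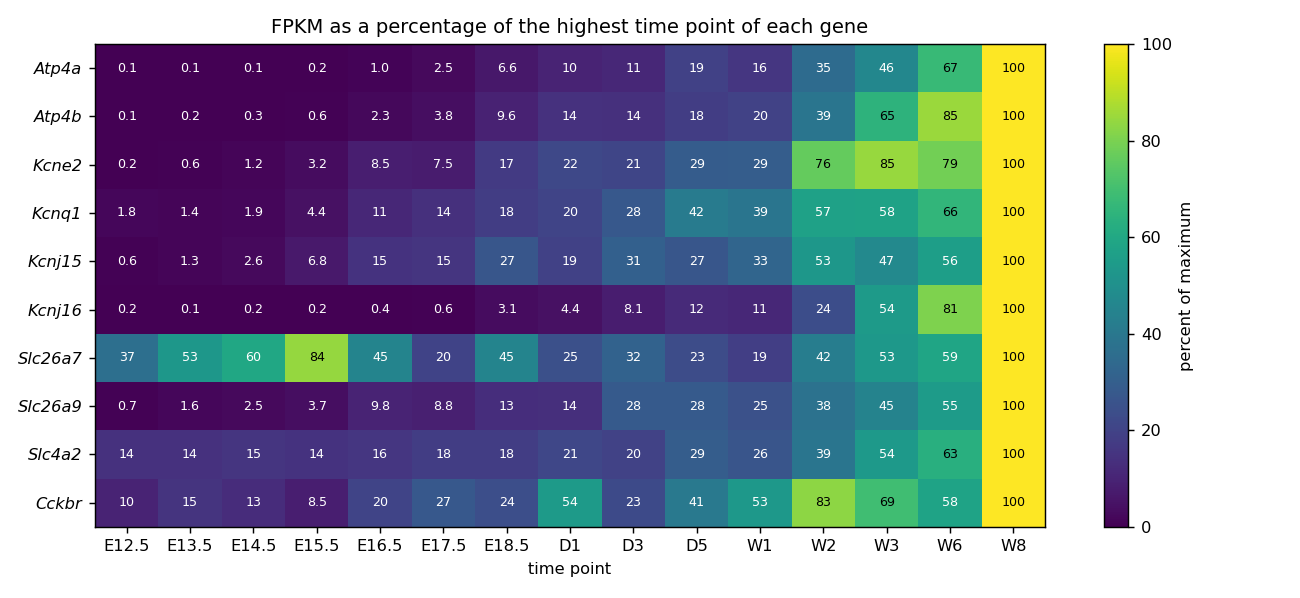
FPKM of the 10 genes (rows) at the 15 timepoints (columns) as a percentage of the highest timepoint of each gene, which is W8 for all 10 (colour and printed value). Kcnj16 is at 23.7% at W2 and at 54.4% at W3, Kcne2 is already at 76.5% at W2, and Slc26a7 is at 84.1% at E15.5.

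Over the 15 timepoints, Pearson's r between log2(FPKM + 1) of a gene and the mean standardized level of Atp4a and Atp4b was 0.991 for Kcnq1, 0.989 for Kcne2, 0.98 for Slc26a9, 0.969 for Kcnj15, 0.916 for Kcnj16, 0.908 for Cckbr, 0.851 for Slc4a2 and -0.0554 for Slc26a7. On this scale Kcnj16 and Slc4a2 were closer to each other (0.966) than either was to the pump. The 1 added before the logarithm brings the Kcnj16 values under 1 FPKM close together. Whether this order holds without the added 1 was not tested. The 10 other genes most like the pump among 9849 whose FPKM reached 10 were Tmem184a (r = 0.997), Tff2, Fer1l4, Tfcp2l1, Pdia2, Sult1c2, Tmem171, Tcn2, Gif and Tff1 (r = 0.991). Of the symbols compared, 714 had an r of at least 0.9. These correlations are descriptions over timepoints that share an age trend and the same libraries. Tff2, Gif and Tff1 are markers of mucous neck, chief and surface mucous cells. The summed FPKM of the 10 genes was 39.0 to 637.2 in embryonic, 927.4 to 2743 in early postnatal and 4041 to 7260 in late postnatal stomachs. That of the 4 chief cell markers was 186.0 to 16282, 18001 to 30033 and 88376 to 153567. That of the 4 surface mucous cell markers was 230.0 to 5196, 8744 to 57086 and 112467 to 181883. Smooth muscle markers summed to 436.5 to 3172 FPKM, 1869 to 5263 FPKM and 1076 to 4353 FPKM, so the make-up of the libraries differed also within groups. In late postnatal stomachs the chief cell sum was mostly Pgc, with a mean of 119968 FPKM, while Pga5 of the same list had a mean of 354.2 FPKM there and 18390 FPKM in early postnatal stomachs (log2 fold change -5.84, adjusted p = 0.00852 in limma). The part of these in the results for the 10 genes was not tested.

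**Figure D5:**
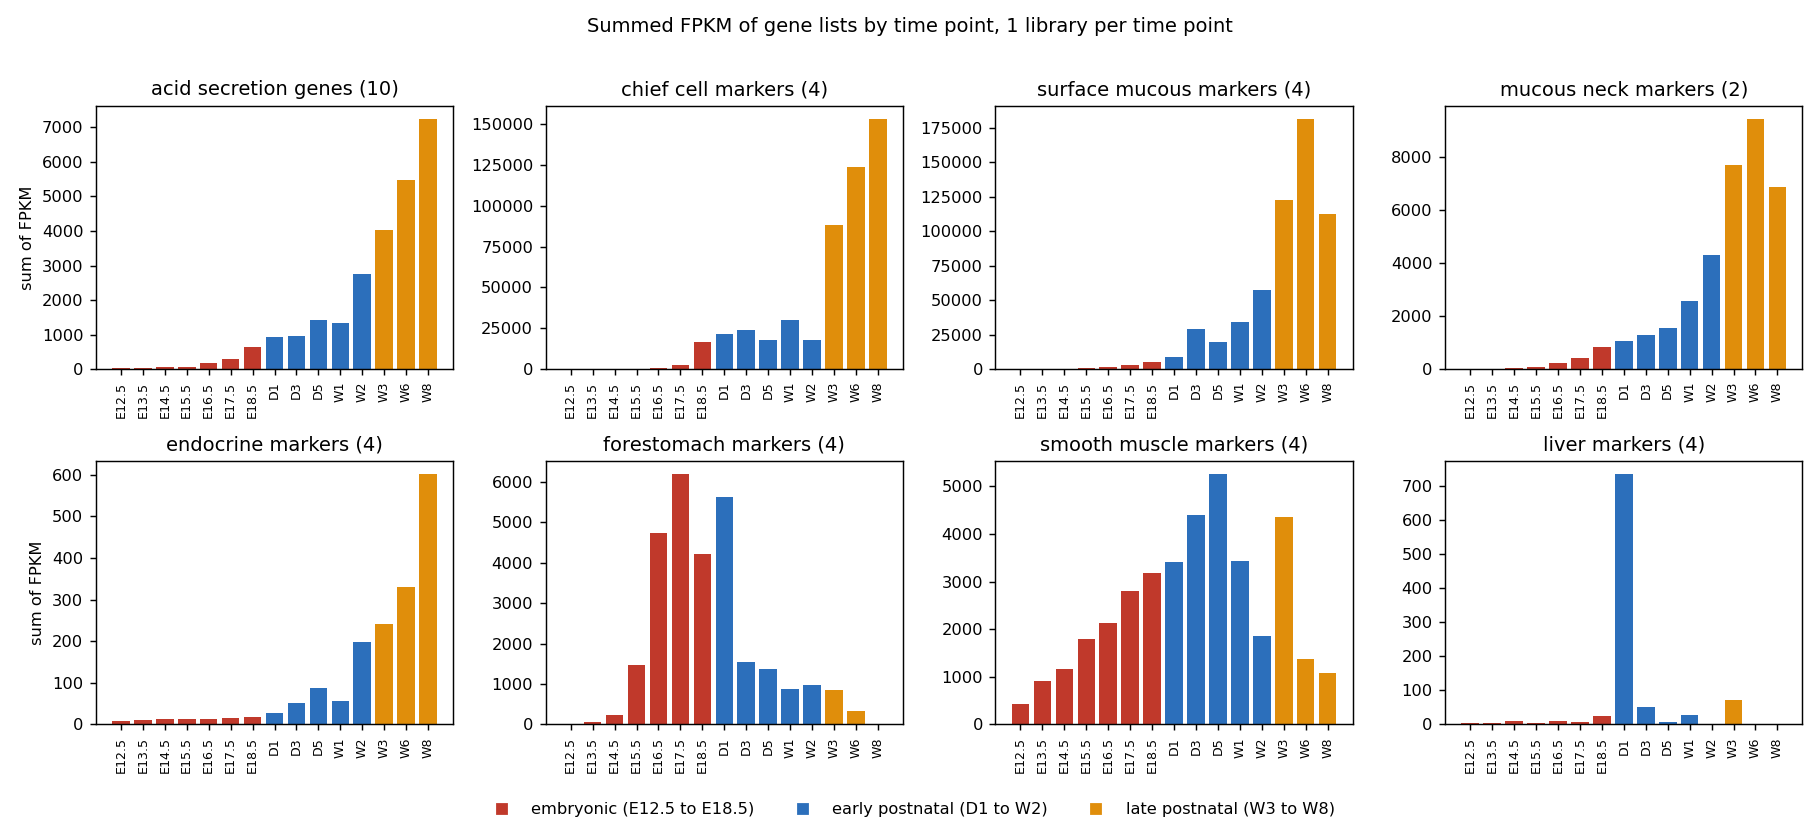
Summed FPKM (y axes, from 0) of the 10 acid secretion genes and of marker genes of other cell types or tissues at the 15 timepoints (x axes, 1 library each). The 10 genes sum to 7260 FPKM at W8, where forestomach markers sum to 7.65 FPKM, and liver markers sum to 734.8 FPKM at D1.

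Other genes of the acid secretion pathway were counted in 4 lists against the same shares of all tested symbols. Of 13 tested genes for other ion and water transport, 6 were higher in early postnatal than in embryonic stomachs and 0 lower, and 1 was higher in late than in early postnatal stomachs. Car2, the carbonic anhydrase that supplies protons and bicarbonate, was 14.47 FPKM at E12.5 and 401.3 at E18.5, and 1045, 1062 and 1083 FPKM from W3 to W8. Its log2 fold change was 2.73 (SE 0.70, adjusted p = 0.00446 in limma) from embryonic to early postnatal stomachs. Clic6, an intracellular chloride channel protein, was the 1 gene higher at both steps (log2 fold changes 1.65 and 1.75, adjusted p = 0.00171 and 0.00569 in limma). Atp1b1, a Na+/K+-ATPase subunit of the basolateral membrane, did not pass at either step, with a log2 fold change of 0.96 (SE 0.36, adjusted p = 0.0318 in limma) at the first. The other 4 genes that were higher were the sodium-proton exchangers Slc9a2 and Slc9a4, the potassium-chloride cotransporter Slc12a7 and the K+ channel Kcnn4, which are named here for this count.

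Of 9 tested genes for the control of acid secretion, 5 were higher in early postnatal than in embryonic stomachs. Gastrin (Gast), the hormone that Cckbr binds, was 1.5 to 10.4 FPKM in embryos, 10.9 FPKM at D1 and 173.0 FPKM at D3, and 352.6 to 519.3 FPKM from W3 to W8. Its log2 fold change was 3.52 (SE 0.59, adjusted p = 0.000384 in limma) from embryonic to early postnatal stomachs and 2.46 (SE 0.73, adjusted p = 0.0128) from early to late postnatal stomachs. Thus Gast had its largest fold step between D1 and D3, where the level of Cckbr was 2.43 and 1.01 FPKM. In FPKM the largest step of Gast was from 72.9 at W2 to 352.6 at W3. Somatostatin (Sst), which inhibits secretion, was 2.77 to 29.1 FPKM in embryos and 1040, 1035, 881.6 and 1036 FPKM from W2 to W8 (log2 fold change 5.19 from embryonic to early postnatal stomachs, SE 0.66, adjusted p = 0.000117 in limma). Hdc, which makes histamine, was higher in late than in early postnatal stomachs (1.97, SE 0.39, adjusted p = 0.00143 in limma), and so was the somatostatin receptor Sstr2 (1.75, SE 0.29, adjusted p = 0.000596). The third was Hrh2, the histamine receptor of the parietal cell, which was listed at 0 at E12.5 and was 0.953 FPKM at E18.5, 3.91 at W2 and 8.62 at W8. The prostaglandin receptor Ptger3 was higher in early postnatal than in embryonic stomachs (log2 fold change 0.73, adjusted p = 0.00185 in limma). In late postnatal stomachs it was lower than in early postnatal ones (-0.85, adjusted p = 0.00361 in limma). Both were named for these counts after their values were seen.

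Of 13 genes for traffic of the tubulovesicles that carry the pump to the apical membrane, 3 were higher in early postnatal than in embryonic stomachs. Ezr, which links the apical membrane to actin, was 71.3 to 168.3 FPKM in embryos, 168.7 to 276.3 FPKM in early postnatal and 340.5 to 380.4 FPKM in late postnatal stomachs (log2 fold change 0.73, SE 0.21, adjusted p = 0.00802 in limma, at the first step). Lasp1 was the 1 gene of this list higher in late postnatal stomachs (0.68, SE 0.13, adjusted p = 0.00104 in limma). Rab25 and Vamp8 did not pass at either step. Hip1r and Dnm2 were higher at the first step and Vamp2 was lower at the second, and are named for these counts. Of 7 genes for oestrogen-related receptors, their coactivators and creatine kinases, 4 were higher at the first step, among them Esrra (0.84, SE 0.24, adjusted p = 0.00771 in limma) and Esrrg (1.16, SE 0.34, adjusted p = 0.0089). Ckb and Ckmt1 were not (adjusted p = 0.0296 and 0.0181).

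Of 21 tested relatives of the 10 genes in their own families, 4 were higher and 2 lower in early postnatal than in embryonic stomachs. The shares of all tested symbols were 10.8% higher and 30.6% lower. In late against early postnatal stomachs 0 relatives were higher and 7 lower, beside 2.57% and 28.9% of all tested symbols. The count of 7 was thus close to the share over all symbols. Their median log2 fold change was 0.36 at the first step and -0.54 at the second, beside medians of -0.22 and -0.42 over all tested symbols. Kcne1, another small subunit of Kcnq1, was 0.0654 to 3.66 FPKM in embryos and 7.84, 8.31, 18.3, 20.8 and 36.1 FPKM from D1 to W2 (log2 fold change 3.16, SE 0.43, adjusted p = 0.000156 in limma). At W3, W6 and W8 it was 12.9, 12.2 and 6.70 FPKM, while Kcne2 had 67.4 FPKM or more (log2 fold change -0.57, SE 0.54, adjusted p = 0.385). Kcnj8 and Slc4a3 were lower in late postnatal stomachs, with log2 fold changes of -1.87 and -1.52 (adjusted p = 0.00118 and 0.00105 in limma). Slc26a6, the highest relative of Slc26a7 and Slc26a9, was 6.20 to 13.9 FPKM in embryos and 21.3 to 30.1 FPKM in late postnatal stomachs, a level that comes from 2 entries (log2 fold change 1.01 from early to late postnatal stomachs, SE 0.29, adjusted p = 0.0115). Cckar, the receptor for cholecystokinin, was higher in early postnatal stomachs (1.76, SE 0.36, adjusted p = 0.00117 in limma), at 13.47 to 44.5 FPKM. At each of the 15 timepoints its FPKM was above that of Cckbr. The gastric pump's closest relative Atp12a did not exceed 0.138 FPKM.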

How the data were processed

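RNA-Seq was performed on whole stomachs at 15 timepoints with 1 library each. The authors deposited, for each gene entry, an FPKM value and its confidence bounds, in the layout of Cufflinks gene tables. The submitters' processing notes name Bowtie 0.12.2, FastQC and GRCm38.p2, the study's methods name HISAT2 and StringTie, and they name liver as the source of the RNA where the labels say stomach. File positions count the start from 0 and are printed counted from 1.

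Entries that share a symbol were added up, and symbols whose FPKM reached 1 at any timepoint were tested on log2(FPKM + 1) with limma 3.58.1 in R 4.3.3 over all 15 libraries, with Benjamini-Hochberg adjustment and a threshold of 0.01. Embryonic, early postnatal and late postnatal groups were set by age, with the border at W3, the age of weaning. Single genes and 8 log2 ratios between genes were compared by exact two-sided permutation tests (SciPy 1.17.1). Read depth is unknown. The bounds come from 1 library each, so they hold no spread between libraries, and the sources used here do not say which errors they cover. The test was tried on simulated data.

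The 10 genes, the gene lists, motifs and ratio pairs were chosen with earlier results of these data known. All 10 genes are named. From each other list the 4 genes with the highest maximal FPKM are named, from the relatives the highest of each family, and the 10 genes most like the pump by Pearson's r. Results for some genes that this rule names are not reported here. Alternatives were other pseudocounts, filters, scalings, entries, age groups, tests, thresholds and leaving out timepoints, with D1 and W8 left out together as a choice made after seeing the data.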

Additional observations from a re-analysis of the deposited data

Results flagged for a closer look

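In 5 of the 20 groups of embryonic or early postnatal values of the 10 genes, the highest value stood apart from the rest of its group by Dixon's ratio. Its critical values are set for random values of 1 normal distribution, where about 1 of 20 groups would pass. That rate does not apply here, because a group holds the untransformed FPKM of successive ages and the genes share the same libraries. Each of the 5 values was the oldest timepoint of its group, as a steady rise with age can give. Among embryonic stomachs these were E18.5 for Atp4a (215.7 FPKM, ratio 0.627 against a critical value of 0.568), for Atp4b (326.7 FPKM, ratio 0.617) and for Kcnj16 (2.07 FPKM, ratio 0.847). Among early postnatal stomachs these were W2 for Atp4b (1330 FPKM, ratio 0.767 against a critical value of 0.71) and for Kcne2 (65.6 FPKM, ratio 0.846). The groups of 3 late postnatal values were not examined in this way.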

How the results depend on the processing

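Among the alternative values of the log2 fold changes of the 10 genes from embryonic to early postnatal stomachs, 248 kept their direction and their side of the threshold, and 12, all of Kcnj15, kept the direction only. From early to late postnatal stomachs 250 did so and 10 newly passed the threshold, and none changed sign in either comparison. The count of the 10 genes higher in late postnatal stomachs was 2, and became 4 with quantile normalization (Cckbr and Slc26a7 in addition) and 5 with the protein-based phases (Atp4a, Atp4b and Slc26a7 in addition). With the RNA-based phases the same 2 genes were higher. With 1 timepoint left out at a time, 9 to 10 of the 10 genes differed across the age groups, 8 to 9 were higher in early postnatal and 2 to 3 in late postnatal stomachs.

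Over all symbols, 1820 were higher and 5170 lower in early postnatal stomachs, 435 higher and 4877 lower in late postnatal stomachs, and 11472 differed across groups. With median-ratio scaling these became 2888 and 2515, and 2152 and 1305. With quantile normalization the late counts were 1411 and 925, and with the protein-based phases 693 were higher. At an adjusted p under 0.05, 2865 were higher in early postnatal stomachs, and 829 were higher and 7891 lower in late postnatal stomachs. Without D1 and W8 the late counts were 190 and 1898. Leaving out 1 timepoint gave 10035 to 11966 symbols across groups, 1282 to 2254 higher and 3707 to 6045 lower in early postnatal stomachs, and 169 to 573 higher and 1359 to 5660 lower in late postnatal stomachs. The lowest late counts came without W6 (169 and 1359), and without W8 they were 273 and 3014. Apart from fewer samples in some settings, the cause was not tested.

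The log2 ratios between late and early postnatal stomachs that lay near 0 changed sign when 1 timepoint was left out. That of Atp4a to Atp4b was -0.03 and ranged from -0.167 to 0.0758, being 0.049 without D5, 0.0758 without W3 and 0.0014 without W6. That of Slc26a9 to Slc26a7 was -0.0236 and ranged from -0.213 to 0.105, being 0.0717 without D5, 0.105 without W1 and 0.0452 without W3. The depth behind a value is unknown, and the wide bounds of Kcnj16, Kcne2 and Cckbr before E16.5 limit statements on those levels. No paired analysis was possible because each timepoint has 1 library and the labels give no replicate numbers.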
